A study of Mus musculus with 2 samples.

Results

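The miR-135 family of the mouse comprises the hairpin genes Mir135b, Mir135a-1 and Mir135a-2, and it is described here in hindbrain from B6NCrl embryos at embryonic day 12.5. The 3 members were chosen by gene symbol among the 1973 microRNA (miRNA) genes of the count tables, and the family was picked with results of these tables already known, so its levels are a description without a test. The series has 1 group, with no treatment, mutant or other tissue beside it. Its 2 small RNA libraries are numbered in the labels as biological replicates, replicate 1 pooling 120 embryos and replicate 2 pooling 88, with males and females mixed. Nothing in the labels separates hindbrain cell types, and in such whole-tissue RNA a low level in every cell and a high level in few cells cannot be told apart. Replicate 1 had 2764276 reads assigned to miRNA genes on the gene's own strand and replicate 2 had 3946444. Levels are counts per 1000000 assigned reads (CPM), and intervals cover counting error only. Mature miRNAs are of nearly equal length, so counts were not divided by length.

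Each hairpin is cut by Drosha and Dicer into a 5p and a 3p strand, and the strand loaded into Argonaute pairs with messenger RNAs mainly through its seed, the bases from position 2 to 8. miR-135a and miR-135b are known for acting on Wnt signalling, partly through the Wnt brake Apc. In the embryonic midbrain and hindbrain, miR-135a has been linked to Lmx1b and Wnt1, which maintain the organising centre at the midbrain-hindbrain border. In the adult raphe, a hindbrain nucleus, miR-135a acts on the serotonin transporter Slc6a4 and the serotonin receptor Htr1a.

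The mature sequences show which reads can be told apart between the hairpins, so they are given first, 5′ to 3′ from RefSeq on GRCm38.p6, with the seed in capitals. miR-135a-5p is cut from both Mir135a-1 and Mir135a-2, and the 3p strands differ in each hairpin. The RefSeq sequences used here held no entry for miR-135b-5p, so that strand of Mir135b is not printed.
mmu-miR-135a-5p: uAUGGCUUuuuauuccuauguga
mmu-miR-135a-1-3p: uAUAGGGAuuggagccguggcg
mmu-miR-135a-2-3p: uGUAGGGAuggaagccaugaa
mmu-miR-135b-3p: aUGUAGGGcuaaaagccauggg
The seed of each 3p strand was carried by only 1 mature miRNA name in the RefSeq table. The 3p strands of Mir135a-1 and Mir135a-2 differed at 6 of 21 aligned bases, and that of Mir135b differed from them at 7 and 5 of 21.

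The hairpins of Mir135b and Mir135a-2 are shown because they differ most in level and in base composition, with the 7 letters of the miR-135a-5p seed in capitals.
Mir135b: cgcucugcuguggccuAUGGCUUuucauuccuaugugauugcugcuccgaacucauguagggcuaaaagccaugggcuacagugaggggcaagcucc
Mir135a-2: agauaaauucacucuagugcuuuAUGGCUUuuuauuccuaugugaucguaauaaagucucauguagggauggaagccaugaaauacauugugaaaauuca
All 3 hairpins hold these seed letters once. Among the 371 miRNA genes with at least 10 counts in both libraries, called detected below, 6 hairpins (1.62%) contain them, and the others are Mir449a, Mir679 and Mir879. The Mir135b hairpin matched miR-135a-5p at 22 of 23 bases, with the substitution U11C (miR-135a-5p base, position from its 5′ end, hairpin base), outside the seed. The longest identical run was 24 bases between the miR-135a hairpins, 14 bases between Mir135b and Mir135a-1, and 13 bases between Mir135b and Mir135a-2. Hence a read of up to 24 bases inside the shared run has the same match in both miR-135a hairpins, and reads that matched several positions were assigned to no gene. The counts of Mir135a-1 and Mir135a-2 are therefore those of reads placed at only 1 of them, and the tables do not separate the arms.

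**Figure D1:**
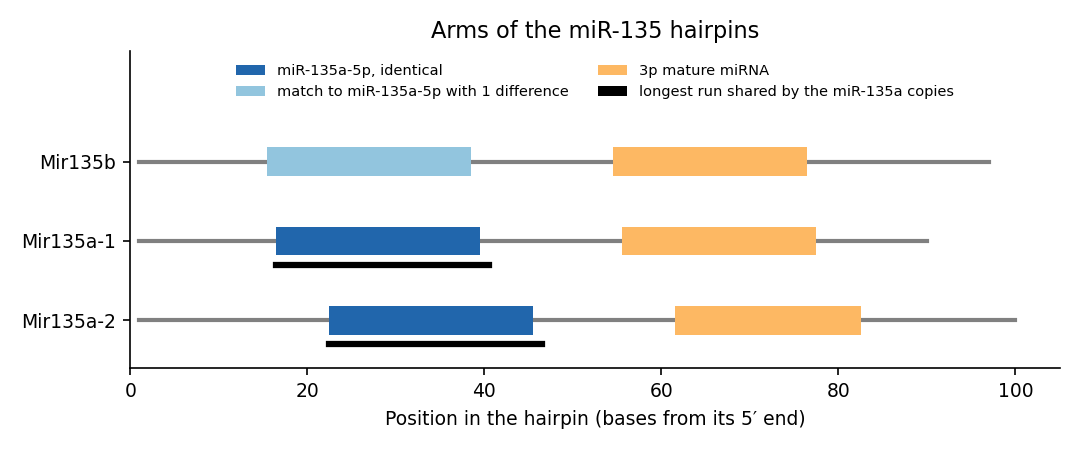
Map of the 3 miR-135 hairpins, with position in bases from the 5′ end of each on the x axis. Dark blue marks miR-135a-5p, light blue the stretch of Mir135b that matches it at 22 of 23 bases, orange the 3p mature miRNA and black the run of 24 bases that both miR-135a copies share, which covers the whole of miR-135a-5p.

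The hairpins lie on different chromosomes in the mm10 (GRCm38) assembly. Mir135b (ENSMUSG00000065435.1) is at chr1:132198088-132198184 on the plus strand, in an intron of Lemd1 and of the overlapping model AC124108.1. Mir135a-1 (ENSMUSG00000065407.1) is at chr9:106154124-106154213 on the plus strand. There it lies in an intron of the noncoding gene D030055H07Rik and opposite to the last exon of Glyctk, which encodes glycerate kinase, within its 3′ untranslated region. Mir135a-2 (ENSMUSG00000065524.1) is at chr10:92072086-92072185 on the minus strand, in an intron of Rmst, a long noncoding RNA known from the embryonic midbrain and from neurogenesis. In both libraries the opposite-strand count was 0 for all 3 members, so none of their reads came from the Glyctk strand.

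Mir135b was by far the most abundant member among reads placed at 1 position. It had 14651 counts or 5300.1 CPM in replicate 1 (exact Poisson 95% interval 5215 to 5387) and 19354 counts or 4904 CPM in replicate 2 (4835 to 4974). Its level was 5102 ± 280.0 CPM (SD, n = 2), rank 46 of the 371 detected miRNA genes. That is 0.510% ± 0.0280 of all assigned counts.

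Mir135a-1, the copy opposite to Glyctk, had 823 counts or 298 CPM in replicate 1 (278 to 319) and 1080 counts or 274 CPM in replicate 2 (258 to 290.5). Its level was 286 ± 17.0 CPM (SD, n = 2), rank 163. Mir135a-2, the copy in Rmst, had 394 counts or 143 CPM in replicate 1 (129 to 157) and 601 counts or 152 CPM in replicate 2 (140.4 to 165), a level of 147 ± 6.90 CPM (SD, n = 2) and rank 196. The ranges of the 3 members over the libraries did not overlap: Mir135b was the highest and Mir135a-2 the lowest in each library. All 3 members were detected, far above the limit of 1.09 and 0.760 CPM that a count of 0 allows in replicates 1 and 2.

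**Figure D2:**
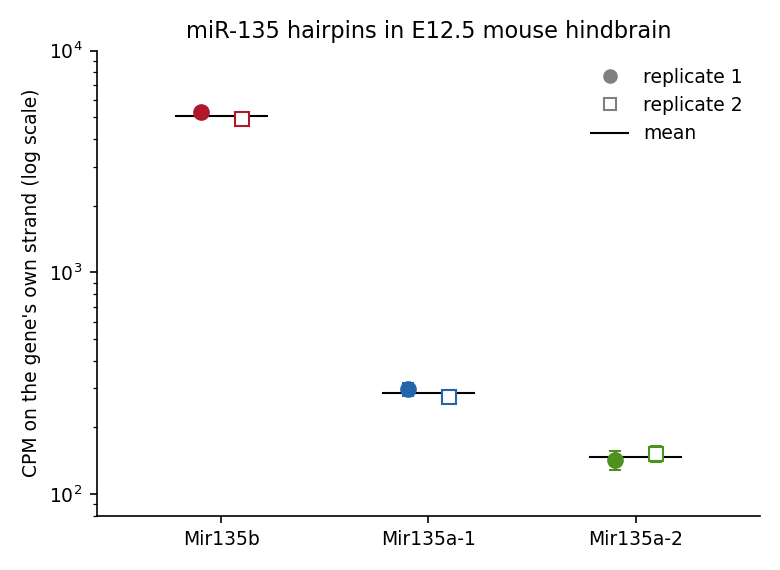
Level of each miR-135 hairpin in each library, in CPM on the gene's own strand (log scale), with filled circles for replicate 1, open squares for replicate 2, bars for the exact Poisson 95% interval and lines for the mean. Mir135b stands at 5300.1 and 4904 CPM, Mir135a-1 at 298 and 274 and Mir135a-2 at 143 and 152, so the 3 ranges are apart.

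Within the family, Mir135b accounted for 92.3% of the counts in replicate 1 and 92.01% in replicate 2, with exact 95% intervals (Clopper-Pearson) of 91.9% to 92.7% and 91.6% to 92.4%. Mir135a-1 accounted for 5.19% and 5.13%, and Mir135a-2 for 2.48% and 2.86%. The proportions were thus nearly the same in both libraries. The count ratio of Mir135b to Mir135a-1 was 17.8 in replicate 1 (16.6 to 19.1) and 17.9 in replicate 2 (16.9 to 19.1). Against Mir135a-2 the ratio was 37.2 in replicate 1 (33.6 to 41.2) and 32.2 in replicate 2 (29.7 to 35.0). Against the miR-135a copies together, Mir135b was 12.0-fold higher in replicate 1 (11.4 to 12.8) and 11.5-fold higher in replicate 2 (11.0 to 12.1). These ratios hold for reads placed at 1 position and are no measure of total miR-135b against total miR-135a. The reads matching several positions numbered 1947238 and 2890679, or 123 and 137 for each count of the family, and how many of them were miR-135a-5p was not tested.

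Between the miR-135a copies, Mir135a-1 exceeded Mir135a-2 in each library. The ratio was 2.09 in replicate 1 and 1.80 in replicate 2, with exact 95% intervals of 1.85 to 2.36 and 1.62 to 1.99. The intervals are above 1, so among reads placed at 1 position the excess of Mir135a-1 was larger than counting error in each library. They overlap each other, and whether the excess differed in size between the libraries was not tested. The ratio leaves out reads inside the shared run, which covers all of miR-135a-5p. It is therefore no measure of the total output of either copy. The whole family came to 15868 counts in replicate 1 and 21035 in replicate 2, which is 5740.4 and 5330.1 CPM, or 0.554% ± 0.0290 of assigned counts (SD, n = 2).

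The members differed little between the libraries. Mir135b was 1.08-fold and Mir135a-1 was 1.09-fold lower in replicate 2, and Mir135a-2 was 1.07-fold higher. On the log2 scale these ratios were -0.11, -0.12 and 0.09, and with DESeq2 size factors in place of the assigned totals they were -0.07, -0.08 and 0.14. The signs were the same under both scalings, and the sizes depend on the scaling. The coefficient of variation between the libraries was 5.49% for Mir135b, 5.96% for Mir135a-1 and 4.68% for Mir135a-2. The common dispersion from edgeR over all tested genes corresponds to 17.5%, which is another measure. It leaves counting error out and follows edgeR's TMM scaling, whereas the values of the members include counting error and use the assigned totals. The median absolute log2 ratio was 0.11 for the 3 members and 0.24 for all 393 genes that averaged 10 counts or more.

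The counts of each gene were compared between the libraries, not between conditions, by an exact binomial test (two-sided, Benjamini-Hochberg adjusted over these 393 genes). None of the 3 members reached an adjusted p under 0.05 with a 2-fold difference. Over all tested genes 3.56% did. Without a minimum fold, Mir135b passed at an adjusted exact p of 7.11e-12, with a difference of -0.11 on the log2 scale, as did 51.7% of all tested genes. At its depth a shift of this size exceeds counting error. However, of the 43 genes within 2-fold of the mean count of Mir135b, a set that includes Mir135b itself, 28 were farther apart between the libraries. Mir135a-1 (adjusted exact p = 0.120) and Mir135a-2 (adjusted exact p = 0.431) did not pass.

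**Figure D3:**
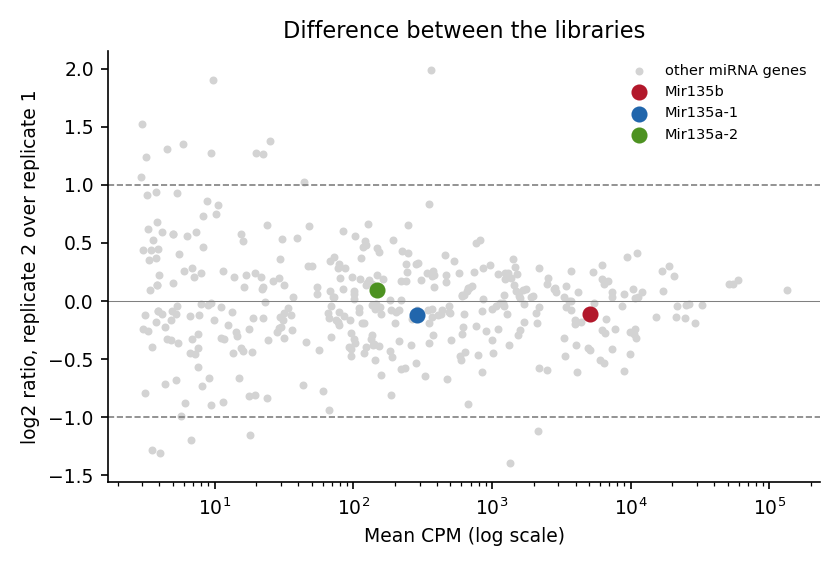
Log2 ratio of replicate 2 over replicate 1 against mean CPM (log scale) for the 393 tested miRNA genes, with the miR-135 members in colour and dashed lines at a 2-fold difference. The members lie at -0.11 (Mir135b), -0.12 (Mir135a-1) and 0.09 (Mir135a-2), inside the dashed lines.

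In the order of levels, Mir135b stood between Mir411 (5360 ± 665 CPM, SD, n = 2), a miRNA of the imprinted Dlk1-Dio3 region, and Mir125a (5081 ± 1046 CPM). Its range over the libraries overlapped those of both, of Mir92-1 below them (4883 ± 952 CPM), and of 6 detected genes in all, so its rank is fixed only to within a few places. Mir431, at 5491 CPM in replicate 1 and 5439 CPM in replicate 2, was above Mir135b without overlap. By the summed absolute difference of log2(CPM + 1) over the 2 libraries, the profiles nearest to Mir135b were those of Mir431 (0.20), Mir92-1 (0.29) and Mir125a (0.31).

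Mir135a-1 stood between Mir301b (288 ± 11.1 CPM, SD, n = 2) and Mir451a (285 ± 44.2 CPM), an erythroid miRNA, and its range overlapped those of 13 detected genes. Mir301b was also its nearest profile, at a distance of 0.04, followed by Mir3074-1 (0.22) and Mir328 (0.30). Mir135a-2 stood between Mir145a (148 ± 33.1 CPM) and Mir200a (145 ± 1.93 CPM), and its range overlapped those of 18 genes. Its nearest profiles were Mir200a (0.12), Mir329 (0.12) and Mir224 (0.15). With only 2 libraries this distance is small for any genes of similar level, and nothing further can be read from it.

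The neighbouring hairpins had other levels than the members. Mirlet7g, of the let-7 family that promotes differentiation, lies 24.6 kb from Mir135a-1 on the same strand, within Wdr82 at chr9:106178840-106178927. It had 22161 CPM in replicate 1 and 20110 CPM in replicate 2, 74.4-fold and 73.5-fold above Mir135a-1. Mirlet7g was the only other miRNA gene of the annotation within 50 kb of a member.

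Rmst also contains Mir1251, at chr10:92137140-92137223 and 65.0 kb from Mir135a-2, named here after its values were seen. Mir1251 had 219.9 CPM in replicate 1 and 158 CPM in replicate 2, which is 1.54 and 1.03 times Mir135a-2. The hairpins of Rmst thus had levels of the same order, and their ranges over the libraries did not overlap.

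To set the excess of Mir135b beside other families with duplicated hairpins, the counts of 2 copies were divided by those of a relative that differs in its bases. This ratio was 0.0831 and 0.0869 for miR-135 in replicates 1 and 2. Of 12 other such families, 2 (miR-133 and miR-196) had copies with 3 counts or fewer in a library and gave no usable ratio. Among the other 10, the copies were below their relative in both libraries in 8, with medians of 0.397 and 0.309. The ratio was lower than that of miR-135 in both libraries in 3 families, and higher in 7.

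The lowest ratio belonged to miR-26, where Mir26a-1 and Mir26a-2 together had 0.00171 and 0.00182 times the counts of Mir26b. The miR-29 and miR-103 families were lower than miR-135 as well. The highest was miR-7, where Mir7-1 and Mir7-2 had 2.76 and 1.71 times those of Mir7b. The copies in these 10 families shared identical runs of 22 to 28 bases, against 24 bases for the miR-135a copies. Reads inside such a run were assigned to neither copy, so the ratios leave them out and are no measure of total levels. The miR-135 ratio lies inside the range of the other duplicated families counted in this way. No test was made, since each family has its own true levels.

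**Figure D4:**
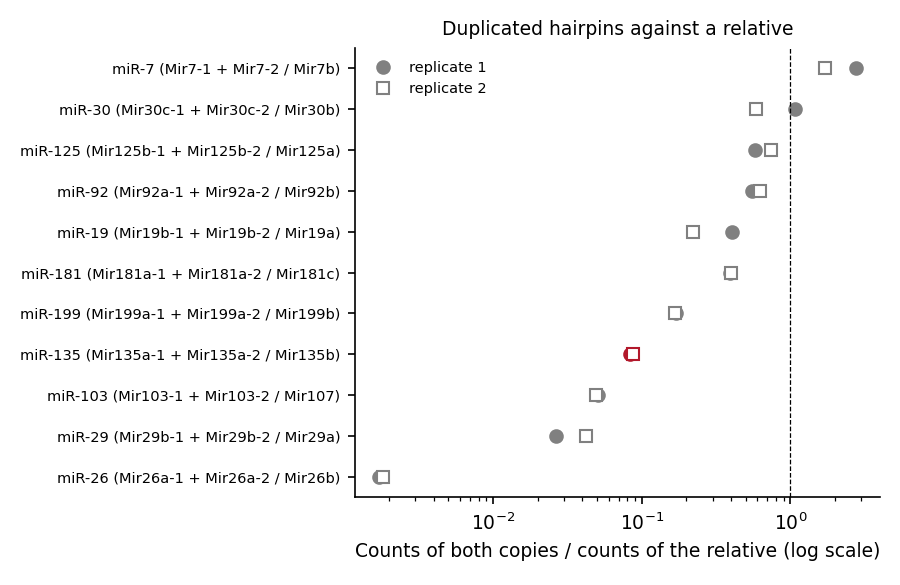
Counts of both copies of a duplicated hairpin divided by those of a relative (log scale), for miR-135 in red and 10 other families in grey, with filled circles for replicate 1, open squares for replicate 2 and a dashed line at 1. miR-135 lies at 0.0831 and 0.0869, above miR-26, miR-29 and miR-103 and below the other 7 families.

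The hairpins also differ in composition. GC content was 53.6% in Mir135b (97 bases), 46.7% in Mir135a-1 (90 bases) and 33.0% in Mir135a-2 (100 bases), against a median of 50.6% over the detected hairpins. The predicted minimum free energy from RNAfold was -48.7, -43.5 and -34.5 kcal/mol, against a median of -37.2. The order of the members by level is thus also their order by GC content and by predicted stability, which with 3 hairpins is a description only. The levels of the miR-135a copies also leave out reads inside their shared run, whereas Mir135b shares no run of 20 bases. How far this sets the order by level was not tested.

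Other miRNAs reported to act on Wnt signalling were all below Mir135b among reads placed at 1 position. The list has 12 genes, of which 11 have a row in the tables and 9 were detected. All 11 were below Mir135b in both libraries and 7 were also below Mir135a-2. Mir203, an epithelial miRNA, was the highest at 2230 CPM in replicate 1 and 2155 CPM in replicate 2, followed by Mir27b at 857 and 1063 CPM. Mir34a, a target of p53, had 81.0 and 76.0 CPM. Mir29b-1 and Mir29b-2, also duplicated hairpins, had 6 counts or fewer. They share an identical run of 25 bases, and reads inside it were assigned to neither. Summed over the list the level was 3836 CPM in replicate 1 and 3987 CPM in replicate 2, less than Mir135b alone. None of the 9 tested members was called as 2-fold different between the libraries, and their median log2 ratio was -0.03, against -0.04 for all 393 tested genes.

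All 15 genes on the list of miRNAs of midbrain, hindbrain and monoamine neurons were likewise below Mir135b in both libraries. This order holds for reads placed at 1 position. Mir7-1 and Mir7-2 share an identical run of 24 bases, and the list also holds the copies Mir16-1, Mir16-2, Mir218-1 and Mir218-2. How many reads of these copies matched several positions was not tested. Mir135b shares no run of 20 bases with another hairpin. Mir16-1, which shares the serotonin transporter as a reported target, was the highest by mean, at 2341 and 2687 CPM, although miR-16 is found in most tissues. Mir96 had 3003 and 1994 CPM and Mir153 1316 and 1614 CPM. Mir218-2, a miRNA of motor neurons, had 191 CPM in replicate 1 and 257 CPM in replicate 2, between the miR-135a copies, and Mir132, regulated by neuronal activity, had 207 and 234 CPM. In both libraries 5 of the 15 genes were below Mir135a-2. Only Mir133b was called between the libraries, from 15 counts in replicate 1 and 53 in replicate 2, which is 1 of 15 tested genes beside 3.56% of all tested genes. The median log2 ratio of the 15 genes was 0.24, against -0.04 for all 393.

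**Figure D5:**
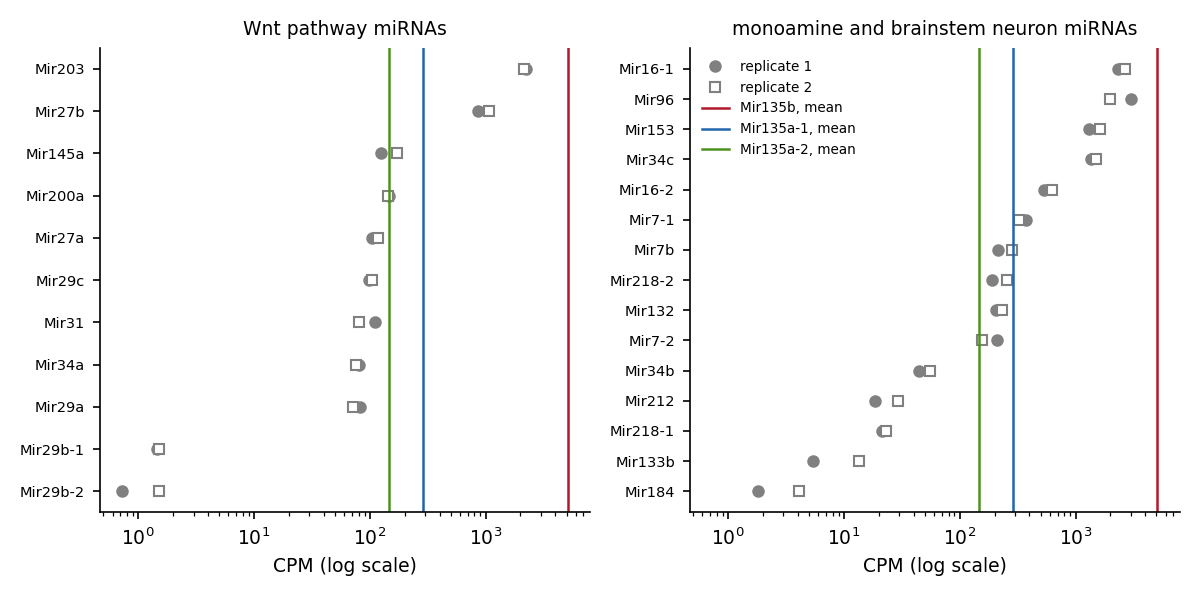
Level in CPM (log scale) of miRNAs linked to Wnt signalling (left) and of miRNAs of monoamine and brainstem neurons (right), with filled circles for replicate 1 and open squares for replicate 2. Coloured lines mark the mean levels of Mir135b (5102 CPM), Mir135a-1 (286 CPM) and Mir135a-2 (147 CPM), and every listed gene lies to the left of Mir135b.

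Among tissue markers, Mir10a and Mir10b, which lie in the Hox clusters and are active in hindbrain, stood at 26347 and 15998 CPM in replicate 1. The more posterior Mir196b stood at 25.0 CPM there and at 36.2 CPM in replicate 2. Mir196a-1 had 0 counts in both libraries, and Mir196a-2 had 3 in replicate 1 and 6 in replicate 2. These copies share an identical run of 22 bases, and reads inside it were assigned to neither. Their low counts are therefore no measure of miR-196a. The endothelial Mir126a (25987 and 23442 CPM) and the mesenchymal Mir214 (12145 and 9714 CPM) were above Mir135b. Among other mesenchymal miRNAs, outside the marker list, Mir199b (672 and 970 CPM) and the Mir199a copies together (115 and 162 CPM) were below Mir135b. The cartilage Mir140 (mean 11157 CPM) was above it. Reads inside the run of 27 bases that the Mir199a copies share were assigned to neither. The log2 ratio was -0.32 for Mir214, but 0.53 for Mir199b, 0.58 for Mir199a-1, 0.49 for Mir199a-2 and 0.42 for Mir140. All 5 neuronal markers were below Mir135b in both libraries. Mir137 was the highest of them at 3263 and 3343 CPM, followed by Mir153, given above. In replicates 1 and 2, Mir124a-1 had 5 and 10 counts, Mir124a-2 had 29 and 37, and Mir124a-3 had 3 in each. How many reads of these copies matched several positions was not tested. The epithelial Mir200c and Mir429 together had 4909 CPM in replicate 1 and 2108 in replicate 2. The muscle genes Mir206 and Mir133b together had 152 CPM in replicate 1 and 592 in replicate 2, nearly all of it from Mir206 (146 and 579 CPM). All 4 of these genes were called between the libraries, beside 3.56% of all tested genes. Other muscle miRNAs, outside the marker list, followed Mir206 and Mir133b only in part. Mir208b and Mir499 were called, with log2 ratios of 1.27 and 1.91. Mir1b (0.096) and Mir208a (-0.33) were not called, and their mean levels were the lowest of the muscle genes named here. Other epithelial miRNAs, outside the marker list, did not all follow Mir200c and Mir429, and none of those named next was called. Their log2 ratios were -0.89 for Mir200b and -0.81 for Mir141, but -0.03 for Mir200a, -0.05 for Mir203 and 0.20 for Mir205. Mir135b differed by 1.08-fold between the same libraries, and the part of such cells in its level was not tested.

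The seed of miR-135a-5p was finally looked up in annotated 3′ untranslated regions of genes linked to the family, as background to its targets. The genes were chosen after the tables had been read, and no target was measured here. The motifs searched on the transcript strand were AAGCCATA (8 letters, the seed match followed by A), AAGCCAT (the seed match alone) and AGCCATA (its last 6 letters followed by A), each place being counted once under the longest. Of 21685 genes with an annotated 3′ untranslated region, taking the longest for each, 16.9% hold at least 1 of these and 2.90% hold the motif of 8 letters.

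Of the 7 genes looked up, 5 hold 1 match each, shown with the matching letters in capitals because they are where the seed could pair.
Lmx1b: cttcagacAGCCATAcggt
Slc6a4: gtcttgctAGCCATAtata
Htr1a: gccacatgAAGCCATtgtt
Jak2: tgaagcatAAGCCATAcata
Smad5: tgctctcaAAGCCATAactc
These letters lie at chr2:33564523-33564529 on the minus strand for Lmx1b, and on the plus strand at chr11:77032095-77032101 for Slc6a4 and chr13:105447399-105447405 for Htr1a. Jak2, a cytokine receptor kinase, and Smad5, a transducer of BMP signals, hold the motif of 8 letters at chr19:29312723-29312730 and chr13:56742297-56742304, both on the plus strand. Wnt1 and Apc had no match in the window searched. Such matches are common in long regions: among genes with a 3′ untranslated region within 1.2-fold of that of Lmx1b (3674 bases), 40.9% hold at least 1. For Slc6a4 (666 bases) this share was 8.35%, for Htr1a (2606 bases) 31.2%, for Wnt1 (936 bases) 12.9% and for Apc (3974 bases) 44.0%. Near the length of Jak2 (1235 bases) 16.1% of genes hold at least 1 match and 2.70% hold the motif of 8 letters. Near that of Smad5 (4902 bases) 51.1% and 9.60% do, the largest shares among the 7 genes. A match is a description of letters and not a measured site.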

How the data were processed

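Small RNA of mouse embryonic hindbrain was sequenced in 2 libraries of 1 group. The authors deposited, per the text deposited beside the tables, whole-number counts per miRNA gene on mm10 with GENCODE M4. For the aligner, counter and trimming, names and versions were not given in the sources used here. The labels number the libraries as biological replicates but give both the same donor label, so their separation rests on those numbers and the pool sizes. Of the 3 count columns, the second was read as the gene's own strand, inferred from the layout and because it holds nearly all gene counts. Rows that name no gene stayed out of totals: in replicates 1 and 2, reads matching several positions were 32.7% and 33.4% of all reads, unmapped ones 15.7% and 16.2%, and those outside genes 5.12% and 4.81%. Depth was 2764276 and 3946444 assigned counts. No molecular identifiers are recorded, so amplified copies may count repeatedly.

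Symbols and positions came from GENCODE M21 (1894 of 1973 gene IDs matched) and mature and hairpin sequences from RefSeq. These held all 3 hairpins but no miR-135b-5p. Genes averaging 10 counts or more entered an exact binomial test of replicate 2 against replicate 1 (two-sided), adjusted by Benjamini-Hochberg and called at an adjusted p under 0.05 and 2-fold, with 0.5 added to counts in ratios. The p-values weigh the difference between these 2 libraries against counting error only, and not against the spread between biological replicates. No contrast between conditions exists. Named genes are the members, miRNA genes within 50 kb, the 2 genes above and below each in level, the 3 nearest in log2(CPM + 1), and the lists. The members, lists and tests were chosen with earlier results of these data known. The binomial script was tested on simulated data. Alternatives were other strands, totals, scalings (edgeR 4.0.16 TMM, DESeq2 1.42.0 size factors), count minimums, folds and added counts. R 4.3.3, Python 3.11.15, SciPy 1.17.1, pandas 2.3.3, numpy 2.4.6, matplotlib 3.10.9 and RNAfold 2.7.2 were used.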

Additional observations from a re-analysis of the deposited data

How the results depend on the processing

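The order Mir135b, Mir135a-1, Mir135a-2 and the detection of all 3 genes were the same under every alternative run, which these alternatives could not have changed. Another total or scaling cannot reorder genes within a library, and the opposite-strand counts of the members were 0. The detection minimums of up to 30 counts lie below the 394 counts of Mir135a-2 in replicate 1. Levels moved with the total they are divided by. Without the most abundant gene in the total, they were 5896 CPM for Mir135b, 330.1 for Mir135a-1, 170.4 for Mir135a-2 and 6396 for the family. With all reads of the tables as the total, they were 2349.5, 132, 67.8 and 2549 CPM. Counting both strands or TMM scaling moved the levels by less than their SD. Counting both strands left the share of Mir135b and the ratio of the miR-135a copies at the same values, as it must without opposite-strand counts. With 2 libraries, leaving out either gives only the value of the other and says nothing about stability. Genes called between the libraries numbered 14, against 8 with a minimum mean of 50 counts and 203 without a minimum fold, and 12 to 19 under the other 7 alternatives. No member was called except Mir135b without a minimum fold, and without genes that share sequence only Mir135b was tested. A DESeq2 or edgeR test between the libraries was not run, since each side has 1 library. Reads matching several positions limit all miR-135a values.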
